A study of Mus musculus with 28 samples.

Results

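The regions described here carried 5-hydroxymethylcytosine (5hmC) peaks in wild-type bone marrow and none after loss of Tet2, with or without loss of Tet1. Peaks from 6 deposited 5hmC lists were merged wherever they overlapped by at least 1 bp on chromosomes 1 to 19, which gave 205075 regions. Of these, 2725 had a peak in both wild-type (WT) lists and in no list of either knockout, of which 2 were from mice without Tet2 (Tet2KO) and 2 from double knockouts that lacked Tet1 as well (DKO). They make up 1.33% of all regions and 2.96% of the 92104 regions called in both WT lists. Taking the knockouts singly, 6716 regions (3.27%) had both WT peaks and no Tet2KO peak, and 6768 (3.30%) had both WT peaks and no DKO peak; the 2725 are those that meet both conditions. The peak calls themselves chose these regions, so their 5hmC is given as a description, without a test. "Lost" means that no peak passed the caller's threshold, not that the mark was absent.

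All groups were C57BL/6 mice, and the cells are those the labels name LK, taken from bone marrow of animals 6 to 10 weeks old. The 3 genotypes were WT, Tet2-/- (written Tet2KO in the titles) and DKO. Each had 2 libraries of 5hmC, captured by selective chemical labelling (hMe-Seal), in which the hydroxyl group is tagged so that the DNA fragment can be pulled out. 5-methylcytosine (5mC) was captured with an antibody (MeDIP) in 2 WT, 1 Tet2KO and 2 DKO libraries, and these 5 lists played no part in choosing the regions. The labels do not say whether libraries came from separate animals, so spreads between them may be technical, and the identity of the cells was not checked against marker genes because only peak lists were analysed.

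TET enzymes are dioxygenases that oxidise 5mC to 5hmC, and then to further products that can be replaced by unmodified cytosine. A site of 5hmC is therefore also a site that was methylated before, and the mark is known to accumulate at enhancers and in the bodies of active genes. Tet2 is the family member most often mutated in human myeloid disease and is well expressed in blood progenitors, where Tet1 and Tet3 are also present.

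The WT peaks of the lost regions were weak, and the regions were shorter than those called throughout. Their median width was 686 bp (range 276 to 2052 bp), against 1182 bp for the 61524 regions called in all 6 lists and 723 bp for all regions, and together they spanned 2.01 Mb. In 2700 of the 2725 regions (99.1%) each WT list had a single peak, and the peaks of both replicates shared a median of 525 bp. The authors' peak score, of which the lowest in any list was 50, had a median of 64.6 in WT replicate 1 and 65.5 in WT replicate 2. These medians stood at percentiles 22.9 and 24.8 of the respective lists, while regions called in all 6 lists stood at 72.4 and 73.4. A score of 100 or more was reached in both WT lists by 45 lost regions (1.65%), and 2342 (85.9%) stayed below 100 in both. Neither replicate was the stronger in general, since WT replicate 2 had the higher score in 1402 regions (51.4%).

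Loss was graded by the strength of the WT peak. When the regions called in both WT lists were ordered by their mean score percentile and divided into 10 equal groups, 13.7% of the weakest group were lost in both knockouts. The share was 7.40% in the next group, 2.36% in group 4 and 0.130% in group 7, and none of the 18421 regions in the strongest 2 groups was lost. The weakest group alone held 1258 lost regions, or 46.2% of them. The share called in all 6 lists ran the other way, from 22.5% in the weakest group to 99.8% in the strongest.

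**Figure D1:**
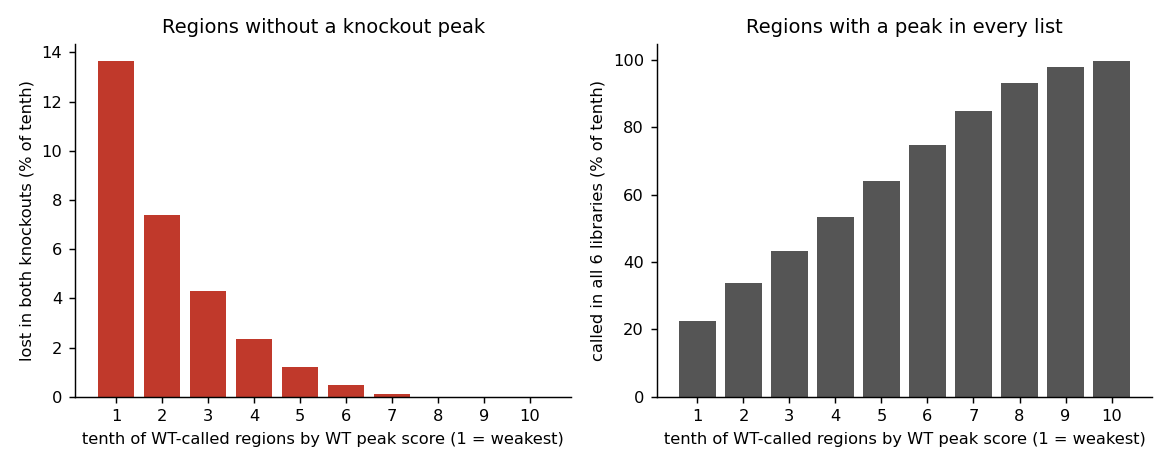
Share of WT-called regions lost in both knockouts (left, percent of each group) and called in all 6 lists (right), in 10 equal groups by the mean WT score percentile, weakest first, each of about 9210 regions. Lost regions sit almost wholly in the weaker groups, from 13.7% in group 1 to 0 in groups 9 and 10.

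The lost regions with the strongest WT peaks show what the top of this set looks like. On chromosome 5, at 73893573 to 73895066 in mm9, a region of 1494 bp had WT scores of 128 and 222, and a knockout peak lay 102 bp away. A region of 1122 bp on chromosome 6, at 30075861 to 30076982, had scores of 159 and 145, with its nearest knockout peak 2201 bp away. More isolated was the region on chromosome 1 at 188966464 to 188967716 (scores 156 and 142), where no knockout list had a peak within 14997 bp and the nearest region of all 6 lists was 72762 bp away. On chromosome 14, at 76295994 to 76296495, only 502 bp were called, with scores of 161 and 135 and the nearest knockout peak at 8198 bp. The region on chromosome 9 at 66349507 to 66350547, scored 140 and 149. The first and the third of these also carried 5mC in all 5 MeDIP libraries, covering 20.3% to 29.6% and 15.6% to 27.8% of their length.

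The widest lost regions were mostly not the strongest. The widest lost region, 2052 bp on chromosome 5 at 104276766 to 104278817, had WT scores of only 52.3 and 51.8. Next came 2027 bp on chromosome 11 at 94883148 to 94885174 (scores 67.8 and 81.4) and 2016 bp on chromosome 2 at 167298061 to 167300076 (79.0 and 89.2), the latter 61 bp from a region of all 6 lists. Stronger was the next, 1937 bp on chromosome 17 at 27071348 to 27073284, with scores of 98.7 and 181. Last of the 5, 1929 bp on chromosome 15 at 53053658 to 53055586 scored 73.0 and 70.5. None of these 5 had 5mC in more than 1 MeDIP library.

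Regions near the caller's threshold are named here, lost ones by their low WT scores and retained ones by a low knockout score. Lost regions have no knockout score, so their difference from retained regions was not measured. Among the lowest WT scores of lost regions were 50.1 and 50.4 on chromosome 9 (62878394 to 62878910). Scores of 50.6 and 50.8 were found on chromosome 18 (13148857 to 13149701), and of 50.1 and 50.8 on chromosome 5 (140814285 to 140814887). Just outside lay regions that had both WT peaks and a single knockout peak with a score of 50.03. They were on chromosome 5 at 118966834 to 118968096 and chromosome 10 at 61675814 to 61676801, both retained by DKO replicate 1, and on chromosome 11 at 69548889 to 69549795, retained by Tet2KO replicate 2. Their WT scores ran from 56.62 to 101.39. The lost regions just inside had been picked for low WT scores, so their lower scores follow from the choice.

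Many lost regions had a 5hmC peak of a knockout list nearby. A peak of at least 1 knockout list, whether or not WT shared it, lay within 500 bp of 30.3% of them and within 5 kb of 86.1%, at a median distance of 1091 bp. Taken singly, the 4 knockout libraries had their nearest peak at medians of 1888 to 2028 bp. The mirror set is the 2665 regions gained in both knockouts (a peak in all 4 knockout lists and in no WT list, 1.30% of all regions). A peak of at least 1 WT list lay within 500 bp of 26.4% of these and within 5 kb of 77.1%. Only 2 WT lists could supply such a peak, against 4 knockout lists. A region called in all 6 lists lay within 500 bp of 13.9% and within 5 kb of 54.1% of the lost regions (median 4103 bp), a share close to the 52.2% of the 2665 regions gained in both knockouts (a peak in all 4 knockout lists and in no WT list, 1.30% of all regions). At 2 kb from the centre of the lost regions, 5hmC peaks covered on average 17.2% and 16.1% of a 100 bp window in the WT libraries, 13.7% and 13.5% in those of Tet2KO and 15.6% and 15.0% in those of DKO. At 5 kb the values were 15.5% and 15.3%, 13.0% and 13.0%, and 14.6% and 13.9%. Over the autosomes, 5hmC peaks covered 109 to 111 Mb in WT, 98.2 to 101 Mb in Tet2KO and 105 to 110 Mb in DKO, and the part of these totals in the flank values was not tested.

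The loss was spread over every autosome. Between 2.35% (chromosome 7, 95% Wilson interval 1.98 to 2.79) and 3.65% (chromosome 14, 3.05 to 4.36) of WT-called regions were lost per chromosome. On the other 17 autosomes the interval contained the overall share of 2.96%. Chromosome 17 held 153 lost and 95 gained regions, the highest ratio (1.61), and chromosome 7 the lowest, with 126 lost and 156 gained (0.808).

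**Figure D2:**
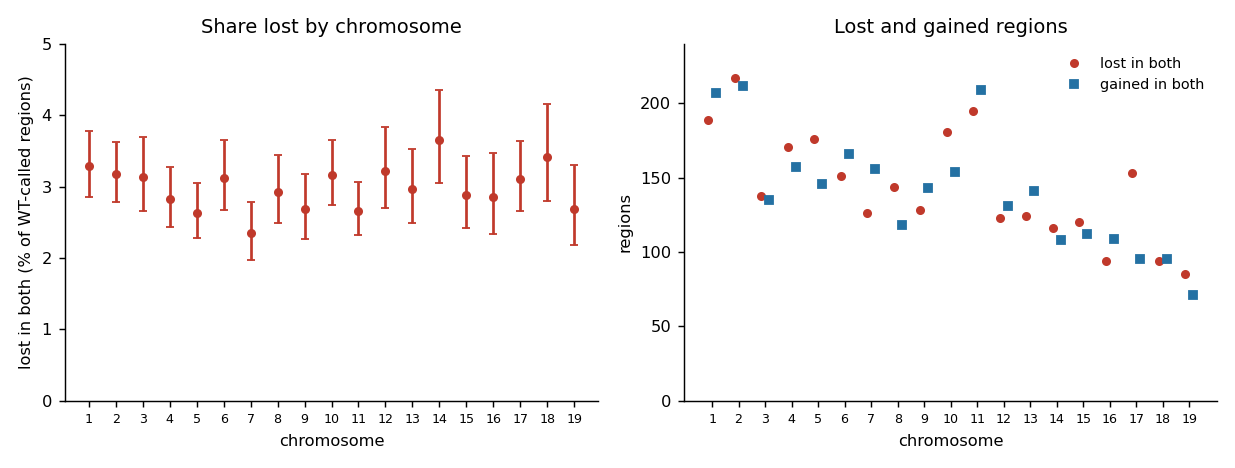
Left: share of WT-called regions lost in both knockouts on each autosome, with 95% Wilson intervals, which cover counting error only. Right: number of regions lost (circles) and gained (squares) in both knockouts, with chromosome 17 at 153 and 95.

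Most lost regions stood alone. The nearest other lost region was at a median of 120 kb, beside 140 kb for gained regions, and 8.37% had another within 10 kb (gained regions: 5.82%). Of the 100 kb bins, 2001 held 1 lost region, 283 held 2, 38 held 3 and 11 held 4, the highest number. Of those 11, the bins with the greatest lost length were 148300001 to 148400000 on chromosome 4, 53000001 to 53100000 on chromosome 15, and 116900001 to 117000000 on chromosome 4. None of the 3 held a gained region, which was the common case: 11710 of the 100 kb bins held none, 2054 held 1, 246 held 2, 33 held 3 and 5 held 4.

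In the chromosome 15 bin the lost regions were 1929, 850, 554 and 851 bp wide, with scores of 54.9 to 129, and 5mC peaks were found at 1 of the 4, in a single library. In WT, 5hmC peaks covered 18.996% and 17.924% of this bin. Coverage was 6.492% and 10.963% with Tet2KO, 9.801% and 11.197% with DKO. In the first chromosome 4 bin the WT libraries (24.9% and 21.0%) and the DKO libraries (22.772% and 17.993%) overlapped, with Tet2KO lower (15.8% and 13.1%). In the second, WT had 22.8% and 22.1%, Tet2KO 12.9% and 13.3%, and DKO 14.7% and 14.3%. At the lost regions of the 2 chromosome 4 bins, 5mC peaks were found more often. In the first, 2 of the 4 lost regions had 5mC in all 5 MeDIP libraries, and in the second 3 of the 4 did. At a scale of 1 Mb, the densest stretches were chromosome 1 at 40000001 to 41000000 and chromosome 3 at 153000001 to 154000000, with 12 lost regions each, beside 3 and 1 gained. In the chromosome 1 stretch, 5hmC coverage was 13.3% and 12.2% for WT, 10.1% and 9.35% for Tet2KO, and 11.9% and 10.8% for DKO. In the chromosome 3 stretch, 5hmC coverage was 12.2% and 12.0% for WT, 7.93% and 8.32% for Tet2KO, and 9.21% and 9.56% for DKO. All these bins and stretches were picked for their lost regions, which WT peaks alone cover, so higher WT coverage follows in part from the choice. The lost regions spanned 8949 bp of the chromosome 1 stretch and 8437 bp of the chromosome 3 stretch. Coverage outside the lost regions is not given.

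The 5mC lists describe these regions by a mark that the choice did not use. A 5mC peak overlapped 29.6% and 32.3% of the lost regions in the WT libraries, 32.8% in the Tet2KO library, and 34.0% and 30.2% in the DKO libraries. Over the 5 libraries, 605 lost regions (22.2%, 95% Wilson interval 20.7 to 23.8) had a 5mC peak throughout, 1544 (56.7%) had none, and 576 had one in some libraries. Over all 5hmC regions, 12.4% had 5mC in every library and 29.4% in any, where the lost regions had 43.3%.

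Regions that appeared only in a knockout carried far less 5mC. The like sets, chosen by 2 lists with a peak and 4 without, were 1953 regions called only in Tet2KO (0.952% of all regions) and 2251 called only in DKO (1.10%). Their median scores, 62.7 and 63.2 in the Tet2KO lists and 62.6 and 65.8 in the DKO lists, were near those of the lost regions in WT. They were short as well, with median widths of 557 bp (Tet2KO only) and 618 bp (DKO only), beside 686 bp for lost and 711 bp for gained regions. Regions called only in Tet2KO had a 5mC peak in 6.86% to 8.35% of cases, regions called only in DKO in 8.53% to 10.8%, and regions gained in both knockouts in 5.29% to 6.83%. Lost regions exceeded the first by 24.4 ± 1.45 percentage points (SD, n = 5 libraries), the second by 22.2 ± 1.48 points (SD, n = 5) and the third by 25.7 ± 1.26 points (SD, n = 5). Each difference was positive in 5 of 5 libraries and many times its spread between 5mC libraries. All 5 scored the same lists of regions, so neither the spread nor the test covers variation in the 5hmC calls that chose the sets. The exact two-sided sign-flip permutation p was 0.0625 for each, adjusted 0.0938 over 6 tests, which is the smallest p that 5 libraries allow, so none could pass 0.05. The comparison with the 2 genotype-only sets was chosen after the data had been seen.

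Against regions called in all 6 lists the share hardly differed, but the extent did. The 5mC share was 1.59 ± 0.490 points higher in lost regions (SD, n = 5, exact permutation p = 0.0625, adjusted 0.0938). It was -0.205 points when 5hmC peaks up to 100 bp apart were merged and 0.0336 points when each 5hmC list was cut to its 128026 strongest peaks. With 5hmC peaks scoring at least 100 it was 6.12 points, and with 5mC peaks scoring at least 100 it was 2.23 points. Neither its sign nor its size thus held throughout. The covered part was larger in every library: 5mC peaks filled on average 15.1% to 16.1% of a lost region, 8.40% to 9.21% of a region called in all 6 lists, and 1.79% to 2.05% of a gained region. Lost regions exceeded the regions of all 6 lists by 6.66 points in this measure (exact permutation p = 0.0625), which was added after the data had been seen.

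**Figure D3:**
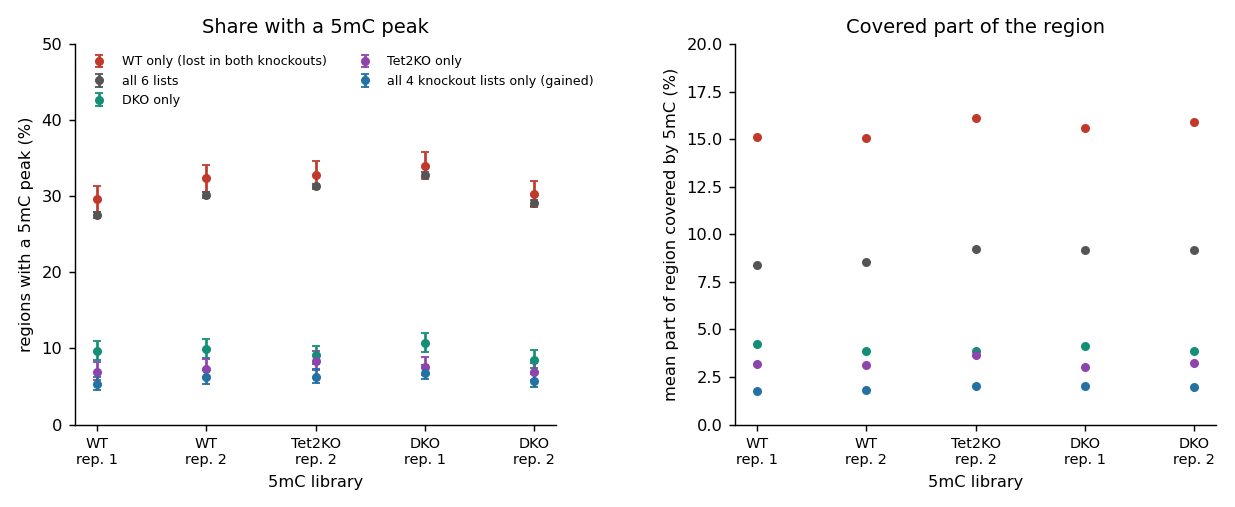
Share of regions with a 5mC peak (left, percent, bars are 95% Wilson intervals for counting error) and mean part of a region covered by 5mC peaks (right, percent) in each of the 5 5mC libraries, for 5 sets of 5hmC regions. The lost regions lie at 29.6% to 34.0% on the left and highest in every library on the right.

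Within most classes of width, lost regions had 5mC more often than regions called in all 6 lists. From 500 to under 700 bp, 28.8 ± 1.90% of lost regions had a 5mC peak (SD over 5 libraries, 1132 regions), beside 14.0 ± 1.25% of regions called in all 6 lists. From 700 to under 1000 bp the values were 36.2 ± 1.53% and 21.8 ± 1.51%, and from 1000 to under 1500 bp 43.9 ± 3.16% and 27.1 ± 2.02%. Below 500 bp the sets were close, at 16.3 ± 1.64% and 13.5 ± 1.18%. At 1500 bp and more, where only 24 regions were lost, the order was opposite, with 31.7% and 44.4%.

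WT-called regions were also divided into 5 equal groups by WT score. In the weakest group, 29.0 ± 1.64% of the 1940 lost regions and 17.0 ± 1.26% of the other 16481 regions had 5mC (SD, n = 5 libraries). In the next group the shares were 36.6 ± 2.48% and 21.4 ± 1.41%, and in the middle group, with 159 lost regions, 44.0 ± 3.24% and 25.3 ± 1.70%. In both kinds of region the 5mC share was higher where the 5hmC peak was stronger. The differences of 12.1, 15.2 and 18.7 points had the same sign in 5 of 5 libraries (exact permutation p = 0.0625 each), again in a division made after the data had been seen.

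**Figure D4:**
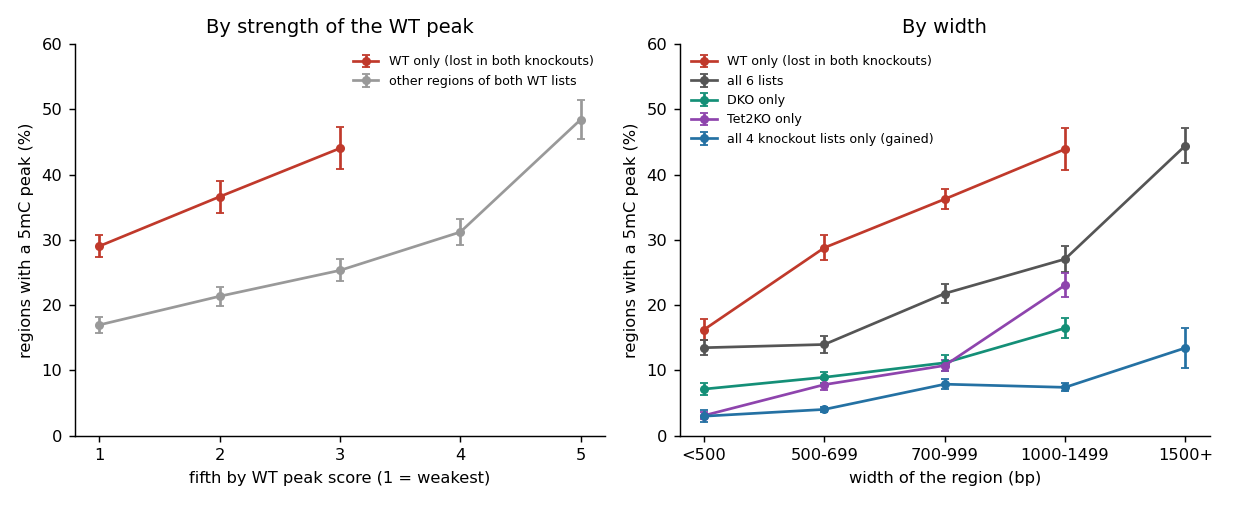
Share of regions with a 5mC peak (percent, mean and SD over 5 5mC libraries) by WT peak score in 5 equal groups (left, sets of at least 100 regions) and by width (right, sets of at least 50 regions). In each of the 3 weaker groups lost regions lie 12.1 to 18.7 points above other regions of both WT lists.

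WT-called regions were also compared by the number of knockout lists that had a peak. With 0, 1, 2, 3 and 4 of the knockout lists showing a peak, 22.2%, 18.4%, 16.7%, 16.3% and 19.8% of regions had 5mC in all 5 libraries. The share with 5mC in any library was 43.3% at 0 lists and 42.9% at 4. The median width went from 686 to 727, 790, 862 and 1182 bp over the same steps.

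5mC coverage peaked at the centre of the lost regions. On average 20.7% and 21.4% of the central 100 bp window was covered in the WT 5mC libraries, 23.0% in the Tet2KO library, and 22.6% and 22.0% in those of DKO. At 1 kb from the centre the 5 libraries were at 4.68% to 4.98%. Regions called in all 6 lists had 11.5% to 13.0% at the centre and 4.54% to 4.82% at 1 kb. Gained regions showed no such maximum, with 2.04% to 2.83% at the centre and 2.73% to 3.05% at 1 kb. The sets called in 1 knockout only had a low one. Regions called only in DKO had 5.08% to 5.95% at the centre and 3.73% to 4.08% at 1 kb. Regions called only in Tet2KO had 3.93% to 4.98% and 2.53% to 2.72%.

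**Figure D5:**
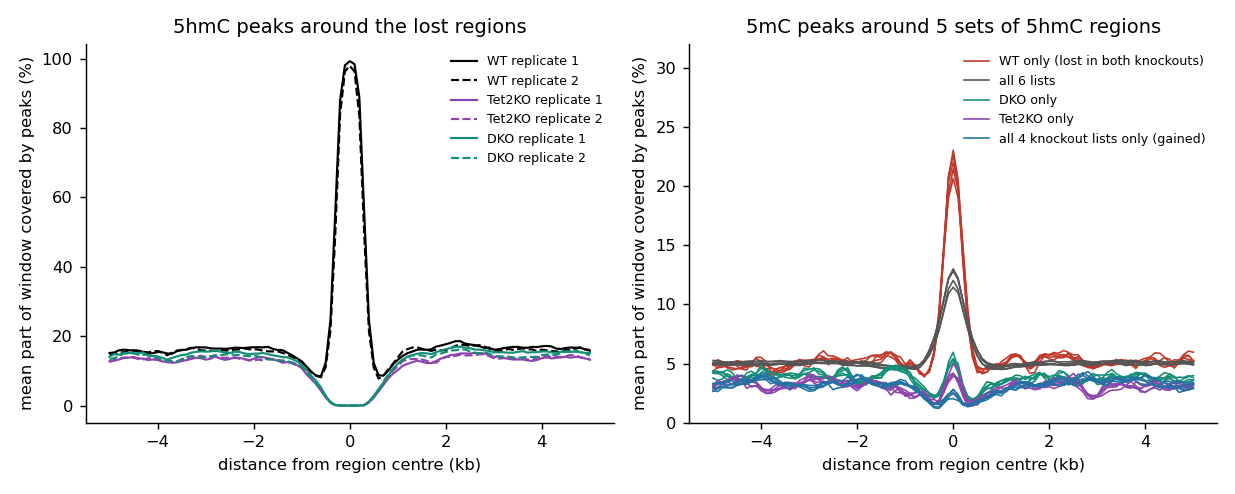
Mean part (percent) of a 100 bp window covered by 5hmC peaks around the lost regions in 6 libraries (left) and by 5mC peaks around 5 sets of regions (right, 1 line per 5mC library), by distance from the region centre in kb. The gap of the knockouts at the centre on the left follows from the choice of regions; on the right, 5mC at the lost regions reaches 20.7% to 23.0%.

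The 5mC peaks on lost regions were also strong ones. Their median score stood at percentiles 65.8 to 68.5 of their lists, beside 61.6 to 63.5 on regions called in all 6 lists and 43.8 to 48.7 on gained regions. In the 605 lost regions with 5mC throughout, a median of 49.2% to 55.5% of the region was covered, depending on the library. These 605 were wider than the 1544 without 5mC (median 741 against 662.5 bp) and had similar WT 5hmC scores (66.6 and 69.7 against 62.9 and 64.2). They lay at a median of 3826 bp from a region of all 6 lists, and the others at 4417 bp.

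Since TET enzymes consume 5mC, it was asked whether the lost regions gained 5mC in the knockouts. The answer differed between measures, and no permutation test of it over libraries could pass 0.05. The share with a 5mC peak was 32.1 ± 2.65% in DKO (SD, n = 2) and 31.0 ± 1.95% in WT (SD, n = 2), a difference of 1.16 points (exact permutation p = 0.667, adjusted 0.667 over 6 tests, smallest possible 0.333). One DKO library lay above both WT libraries and the other between them. Without WT replicate 1 the difference was -0.220 points, and without DKO replicate 1 it was -0.716. With Tet2KO and DKO pooled it was 1.39 points (exact permutation p = 0.4, adjusted 0.48, smallest possible 0.1). Over all 5hmC regions the share was 18.297% and 20.008% in WT and 21.415% and 18.806% in DKO. Among regions called in every 5hmC list it was 27.534% and 30.187% in WT and 32.849% and 29.133% in DKO. In both sets the WT and DKO libraries stood in the same order as at the lost regions. Whether the difference at lost regions departed from these was not tested.

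By the covered part of a region, every knockout library lay above both WT libraries. 5mC peaks covered on average 15.11% and 15.08% of a lost region in WT, 16.11% in Tet2KO, and 15.61% and 15.89% in DKO. The difference was 0.653 points for DKO (exact permutation p = 0.333) and 0.772 points for both knockouts (exact permutation p = 0.1), each the smallest p possible. Over all 5hmC regions, every knockout library likewise lay above both WT libraries, with 7.21% and 7.29% in WT, 7.75% in Tet2KO, and 7.63% and 7.56% in DKO. The same was seen where no 5hmC peak was lost. Regions called in every 5hmC list had 8.40% and 8.53% in WT, 9.21% in Tet2KO, and 9.17% and 9.17% in DKO. Whether the rise at lost regions differed from these was not tested. With equal numbers of 5mC peaks per library, the share of lost regions with a peak also differed by 0.881 points for DKO (exact permutation p = 0.333) and 0.942 for both knockouts (exact permutation p = 0.1). With at least 100 bp covered, the differences were 0.862 (exact permutation p = 0.667) and 1.25 points (exact permutation p = 0.5). With 5mC peaks scoring at least 100 they were 0.679 and 1.03 points (exact permutation p = 0.6 for both knockouts). Values over all regions are not given for these settings.

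Region by region, called changes of 5mC were few and went both ways. Of the lost regions, 22 (0.807%) had a 5mC peak in both libraries of DKO but in none of WT, beside 0.857% of all 5hmC regions. The opposite was seen in 17 (0.624%), beside 0.511% of all regions. Among regions called in both WT lists the shares were 1.27% and 0.624%. The first lies above the 95% Wilson interval of the lost regions (0.534 to 1.22), and the second is close to their share of 0.624%. That interval covers counting error over regions, not the spread between libraries. Regions called in both WT lists were also wider than lost regions (median 1020 bp against 686 bp), and the part of width was not tested. In a limma fit of the covered fraction over 46553 5hmC regions with 5mC in at least 2 libraries, which included 967 lost regions, 0 regions passed an adjusted p of 0.05 in DKO against WT (0% of those tested, and 0 of the 967). The smallest adjusted p was 0.192. At an unadjusted p under 0.05, 36 lost regions (3.72%) were higher and 30 (3.10%) lower in DKO, beside 4.40% and 2.80% of all regions tested. The median difference on the arcsine scale was 0.02 for lost and 0.01 for all regions tested.

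The regions with the largest contrasts are given by position. On chromosome 19, at 12065814 to 12066405, 5mC peaks covered 41.6% and 87.3% in DKO and nothing in WT or Tet2KO. On chromosome 11, at 24002647 to 24003175, they covered 70.1% and 49.9% in DKO, 66.0% in Tet2KO and nothing in WT, and a region of chromosome 7 at 36496552 to 36497302 was alike (42.5% and 57.8% in DKO, 54.6% in Tet2KO). Those on chromosome 8 at 11079679 to 11080170 (49.2% and 68.3%) and chromosome 15 at 101044309 to 101044837 (40.8% and 63.5%) had 5mC in DKO alone. Of these 5, 3 thus lacked 5mC in the single Tet2KO library.

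The opposite pattern was as marked. On chromosome 12, at 109280782 to 109281300, 60.7% and 56.3% were covered in WT and nothing in the knockouts, and on chromosome 3, at 96633169 to 96633648, 51.5% and 55.8% against nothing. The regions on chromosome 11 at 76786322 to 76786969 (53.1% and 49.1%), chromosome 17 at 24431967 to 24432510 (42.8% and 59.0%) and chromosome 8 at 108062926 to 108063673 (44.8% and 46.7%) had 5mC in WT and Tet2KO and none in DKO. The region on chromosome 11 had the smallest unadjusted limma p among the lost regions tested, 0.000733, with an adjusted p of 0.192.

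Tet2KO against WT rests on 1 Tet2KO library of 5mC, which the fit assumes to vary like the others. Again 0 of 46553 regions passed in limma (0% of those tested, smallest adjusted p 0.365). At an unadjusted p under 0.05, 31 lost regions (3.21%) were higher and 30 (3.10%) lower, beside 2.81% and 3.42% of all regions. When regions with 5mC in a single library were tested as well, 3397 of 60206 passed (5.64%), 3057 higher and 340 lower in Tet2KO, and 50 of 1181 lost regions (4.23%). Of these calls, 2847 (40 of the lost regions) had 5mC in the Tet2KO library alone, regions which that filter admits through the library being compared, so no change is read from them.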

How the data were processed

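The 11 peak lists were deposited by the authors, 1 per library, with a chromosome, start, end and a score for each peak and no header. The values of the deposited score look like MACS significance scores (a p-value on a log10 scale, times -10), which no header states. Per the submitters' processing notes, MACS 1.4.2, Bowtie 0.12.9 and the build mm9 were used; neither control libraries nor duplicate removal are described there. Read depth is unknown and can change how many peaks pass. The other 17 samples of the series, RNA-seq libraries, were not analysed here, nor was a genome or annotation of mm9 used, so positions are given without genes or sequences; planned classes of position and gene lists were not run.

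Peaks were merged in Python 3.11.15, and positions count from 1. A region had a mark where a peak overlapped it by at least 1 bp. Shares per library were compared by exact permutation tests over 5mC libraries, which do not cover variation in the 5hmC calls. For limma 3.58.1 (R 4.3.3), the arcsine of the square root was taken of the covered fraction, with all 5 5mC libraries in 1 fit, a trend in the prior variance and Benjamini-Hochberg adjustment. The counting of lost regions and the limma fit were also run on simulated data, the permutation tests were not. Named regions are the 5 widest, the 5 strongest in WT, the 5 with the largest 5mC difference in each direction, those nearest the threshold and the densest bins. The 11 bins with 4 members were ordered by lost length, a step set after their values were seen. Members, lists and tests were chosen with earlier results of these data known. Intervals cover counting error only.

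Groups and numbers came from the titles; the 5mC Tet2KO library is numbered 2 there and 1 in the name of its list. Alternatives were score minimums, equal numbers of top peaks, merging distance, absence with flanks, overlap, filters, scale, replicate block and leaving out each library.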

Additional observations from a re-analysis of the deposited data

How the results depend on the processing

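The number of lost regions depended on the calls. It was 1347 with 5hmC peaks scoring at least 100 and 472 at 200, and 1900 to 3181 with flanks of 500 bp, merging, equal numbers of top peaks or chromosome X added. Leaving out 1 library gave 3843 to 11810, as each such rule asks for fewer lists. Without WT replicate 1 it was 11810 and without WT replicate 2 it was 9630, and without Tet2KO replicate 1 or 2 it was 4303 or 4175. The 5mC share of lost regions minus that of regions called in all 6 lists was -0.205 points after merging over 100 bp. It was 6.12 points with 5hmC peaks scoring at least 100, and 1.45 to 1.71 points when 1 5mC library was left out. The differences from gained, Tet2KO-only and DKO-only regions stayed positive under the 13 alternatives run for each, from 11.6 to 35.3 points, their lower ends being the covered fraction. DKO minus WT ranged from -0.716 to 3.03 points when 1 5mC library was left out, and both knockouts minus WT from 0.0122 to 2.76. In limma, DKO against WT gave 0 calls under each of 10 alternatives (smallest adjusted p from 0.123 to 0.698). Tet2KO against WT gave 3397 calls when regions with 5mC in a single library were tested as well, and 0 otherwise; 2847 of these regions had 5mC in the Tet2KO library only and so entered through the filter itself. With the replicate number as a block, limma gave 0 calls in both contrasts. The deviations of same-numbered WT and DKO libraries correlated at -0.0437 over 46553 regions, so the numbers were not taken as pairs. Sites whose 5hmC lies just under the caller's threshold cannot be told from sites without the mark, because depth is unknown.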

Other observations

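Chromosome X was left out of the rule. It held 1342 merged 5hmC regions, of which 249 were called in both WT lists, 13 were lost in both knockouts and 19 were gained in both. A 5mC peak overlapped 3 of these 13 in each WT library, 3 in the Tet2KO library, and 4 and 3 in the DKO libraries.

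Among the lost autosomal regions, the 5 smallest unadjusted limma p for Tet2KO against WT included 2 differences that the DKO libraries did not share. On chromosome 15, at 78918325 to 78918838, 5mC peaks covered 53.1% and 55.3% in WT, 61.5% and 70.6% in DKO and nothing in Tet2KO. On chromosome 13, at 115783742 to 115784316, they covered 53.6% and 49.2% in WT, 52.9% and 42.6% in DKO and nothing in Tet2KO (limma, adjusted p = 0.365 for both).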
